A study of Mus musculus with 17 samples.

Results

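The endogenous forkhead family of mouse embryonic stem (ES) cells was followed across 5 transgenic lines before and after Dox removal. The members were 39 listed Fox genes, taken by symbol from the 53588 genes of the deposited tables, with the transcripts of each gene summed. The genes that the transgenes encode were left out of the list. All 39 members were found, and 29 had enough counts to be tested.

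Polyadenylated RNA was sequenced in 17 libraries from lines made from MC1 ES cells of the 129S6/SvEvTac strain. Every line, iFoxA1, iFoxC1, iFoxG1, iFoxL2 and iFoxP3, carries, at the Rosa26 locus, the reading frame of 1 forkhead factor tagged C-terminally with His6-FLAG, beside a puromycin resistance gene. Doxycycline (Dox) holds the transgene off, so the 0 h libraries (2 of iFoxA1, 1 of each other line) come from cells in serum, leukemia inhibitory factor (LIF), Dox and puromycin. The 24 h libraries (3 of iFoxA1, 2 of each other line) come from cells washed free of Dox and moved to a serum-containing differentiation medium. All groups share the parent cell, the locus and the tag, and no line without a transgene was sequenced, so a change over time holds the induced factor, the new medium and the missing Dox together. The labels do not say whether a line is 1 clone or whether replicates were separate cultures, so p-values measure only the spread between these libraries. In bulk RNA, fewer cells that express a gene and less RNA per cell cannot be told apart.

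Forkhead factors bind DNA through a winged-helix domain that is nearly the same in all members, while the rest of the protein differs and sets partners and control. Foxh1 carries Nodal and Activin signals as the DNA-binding partner of Smad2 and Smad3, FoxO factors are kept out of the nucleus by insulin and Akt signalling, and FoxP factors form dimers and repress. In ES cells and the early embryo, Foxd3 is known for maintaining pluripotent cells, Foxh1 for patterning the epiblast, Foxm1 for driving genes of mitosis and Foxa2 for forming endoderm and node.

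The forkhead domain is also where reads of 1 member can come from another gene, so the longest stretches shared by 3 pairs are shown here. Capitals mark bases identical in both genes of a pair, and lower case marks the 12 bases on each side, all in coding exons of the mm10 build and written 5′ to 3′ along the transcript. The first pair joins a member to the gene encoded by the iFoxC1 transgene.
Foxc1 (chr13:31807646-31807698, + strand): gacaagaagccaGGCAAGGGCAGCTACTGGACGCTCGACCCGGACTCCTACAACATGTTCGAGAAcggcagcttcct
Foxc2 (chr8:121117032-121117084, + strand): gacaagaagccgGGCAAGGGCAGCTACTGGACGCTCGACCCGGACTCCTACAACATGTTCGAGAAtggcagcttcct
Foxd3 (chr4:99657135-99657202, + strand): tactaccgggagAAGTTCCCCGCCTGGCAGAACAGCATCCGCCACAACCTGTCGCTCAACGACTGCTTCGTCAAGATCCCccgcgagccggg
Foxd4 (chr19:24900341-24900408, - strand): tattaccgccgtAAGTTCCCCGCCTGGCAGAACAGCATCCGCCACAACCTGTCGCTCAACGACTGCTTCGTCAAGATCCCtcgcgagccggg
Foxo1 (chr3:52269372-52269409, + strand): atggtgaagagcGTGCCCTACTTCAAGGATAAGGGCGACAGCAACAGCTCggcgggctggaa
Foxo3 (chr10:42274829-42274866, - strand): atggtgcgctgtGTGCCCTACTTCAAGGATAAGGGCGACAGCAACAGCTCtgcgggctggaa
The shared run was 53 bases in Foxc1 and Foxc2, 68 in Foxd3 and Foxd4, and 38 in Foxo1 and Foxo3. Foxa2, Foxb2 and Foxc2 shared at least 1 stretch of 31 bases with Foxa1, Foxc1, Foxl2 or Foxp3, and 36 members shared none with these 4. Among themselves, 22 members shared such a stretch with another member. These counts cover whole transcripts, so a shared stretch need not lie in the forkhead domain. Reads that lie inside these stretches could be assigned to either gene, and the share of such reads is not known from the deposited tables.

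The transgene-encoded gene was checked in 4 lines before the members were read. Foxa1 in iFoxA1 read 1.87 and 3.05 CPM (counts scaled to the adjusted library total) at 0 h and 237, 252 and 76.8 CPM at 24 h. Foxc1 in iFoxC1 went from 1.94 to 274 and 289 CPM, Foxp3 in iFoxP3 from 0.645 to 218 and 247 CPM, and Foxl2 in iFoxL2 from 1.14 to 149 and 11.5 CPM. The lowest of these 24 h values, in iFoxA1 replicate 3 and iFoxL2 replicate 2, belong to a set of 5 deeper libraries that also holds replicate 2 of the other lines. This second set held 32.9 to 37.2 M counts per library against 17.7 to 22.2 M in the 12 libraries of the first set, and it has no 0 h library. In the second set 3.18 to 5.79% of the TPM total belonged to Mir6236, against 0.0742 to 0.254% in the first. TPM (which corrects for transcript length) differed between the sets by more than this share. Foxd3, for example, averaged 25.4 and 27.7 CPM at 24 h in the first and second set, but 24.7 and 11.1 TPM. The cause was not tested. TPM is therefore used here to rank genes, and CPM to compare libraries. Sums of markers and of the family are in TPM, so their 24 h ranges also hold this difference between the sets. The ES markers Pou5f1, Sox2, Nanog, Zfp42, Esrrb, Klf4, Dppa5a and Utf1 summed to 5089 to 6352 TPM at 0 h and to 3256 to 5478 TPM at 24 h. Of these 8, Utf1 rose on average and Nanog and Zfp42 fell, where 21.7% of all tested genes rose and 16.1% fell. Dppa5a alone read 2487 to 3987 TPM at 0 h and 1682 to 3493 TPM at 24 h, so it weighs most in the ES sum. Of 8 trophoblast markers 6 rose, Hand1 among them, with sums of 34.2 to 58.5 TPM at 0 h and 46.9 to 176 TPM at 24 h. At 24 h Krt18, Krt8 and Hand1 reached 90.3, 68.2 and 29.9 TPM, and the other trophoblast markers at most 19.7 TPM. Of 6 neural markers Tubb3 fell and none rose (38.8 to 66.7 and 10.6 to 21.4 TPM), and Tubb3 alone read 34.9 to 60.4 and 4.28 to 12.4 TPM. Of 9 fibroblast and smooth muscle markers 3 rose (4.80 to 37.5 and 5.82 to 177 TPM), and Col3a1, Lum and Postn stayed under 0.5 TPM in every library. The sum of 177 TPM was that of iFoxL2 replicate 1, and Tagln alone reached 154 TPM at 24 h. Col1a1, Col1a2 and Dcn stayed at or under 1.36 TPM. The part of these other cell types in the changes of the members was not tested.

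The family was led by Foxh1 and a few other members. In mean TPM, 20 of the 39 members reached at least 1 TPM at 0 h and 18 at 24 h, and the whole family summed to 144 to 246 TPM at 0 h and 247 to 340 TPM at 24 h. Foxh1 was the most abundant at both times, at 30.8 ± 5.52 TPM (SD, n = 6) at 0 h and 62.4 ± 12.6 TPM (SD, n = 11) at 24 h. At 0 h it was followed by Foxn2 (25.3 ± 4.06 TPM), Foxp4 (24.2 ± 8.58 TPM), Foxm1 (21.4 ± 9.53 TPM), Foxo4 (17.9 ± 4.01 TPM) and Foxk2 (15.0 ± 2.57 TPM). The 0 h ranges of these 6 genes overlapped with those of their neighbours in this order. At 24 h Foxm1 (32.6 ± 11.6 TPM) and Foxo4 (30.0 ± 10.0 TPM) came next, and Foxn2 stood at 14.3 ± 3.99 TPM.

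**Figure D1:**
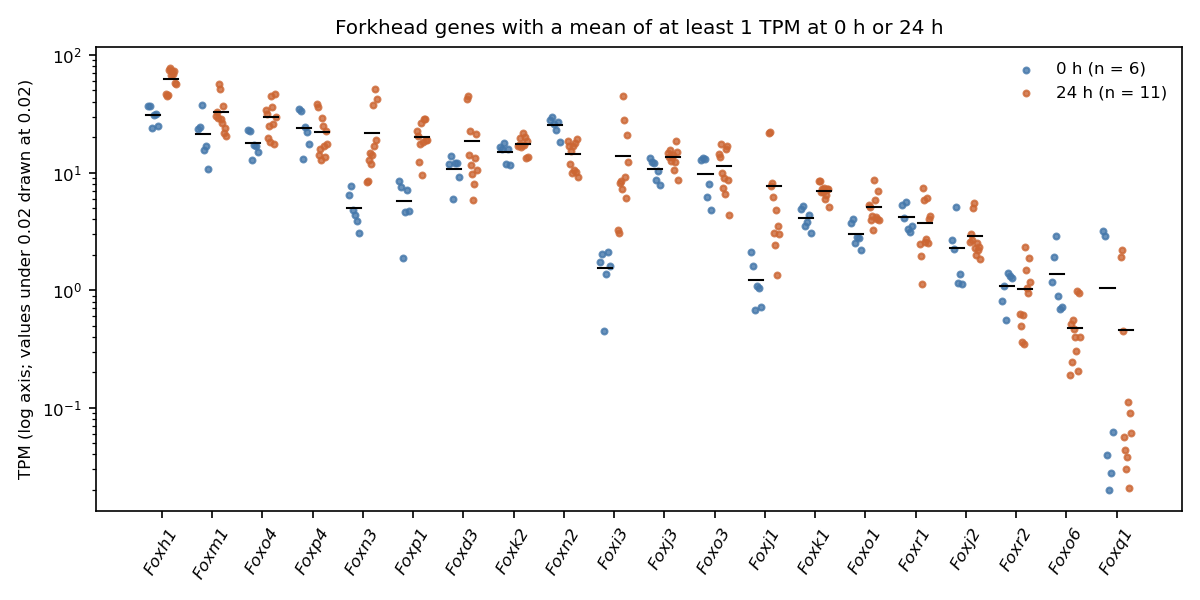
TPM of each forkhead gene with a mean of at least 1 TPM at 0 h or 24 h, on a log axis, with 1 point per library (6 at 0 h, 11 at 24 h) and a bar at the mean. Foxh1 leads at both times, Foxn2 is lower at 24 h, and Foxi3 and Foxj1 spread widely at 24 h.

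At the other end, 8 members had fewer than 10 counts in every library and are reported as not expressed. They were Foxb2, Foxc2, Foxe3, Foxf1, Foxi1, Foxi2, Foxl1 and Foxs1. Foxd2 and Foxn1 reached 11 and 16 counts in their highest library and were not tested either. Of these, Foxd2 had 1 count at 0 h in iFoxA1 and 22 at 24 h (ratio of rates 12.6, exact 95% interval 2.04 to 520, counting error only). Foxn1, the thymus and hair factor, had 3 counts at 0 h and 25 at 24 h in iFoxC1 (ratio 3.25, interval 0.992 to 16.8).

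Averaged over the 5 lines with equal weight, 13 members rose from 0 h to 24 h and 2 fell (edgeR quasi-likelihood test, Benjamini-Hochberg over 19796 genes, adjusted p under 0.05). The share of all tested genes that rose was 21.7%, and 44.8% of the tested members did. For falling genes the share was 16.1%, against 6.9% of the members, and 37.8% of all tested genes changed in either direction. The median log2 change was 0.80 over the tested members and 0.04 over all tested genes. The members that rose were Foxb1, Foxd3, Foxh1, Foxi3, Foxj1, Foxj2, Foxk1, Foxm1, Foxn3, Foxo1, Foxo4, Foxp1 and Foxp2, and those that fell were Foxn2 and Foxo6. In 7 of them (Foxh1, Foxi3, Foxj1, Foxk1, Foxo1, Foxo4 and Foxp1) every 24 h library exceeded every 0 h library, which held for 4.80% of all tested genes, and in Foxn2 every 24 h library was lower, which held for 3.90%.

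**Figure D2:**
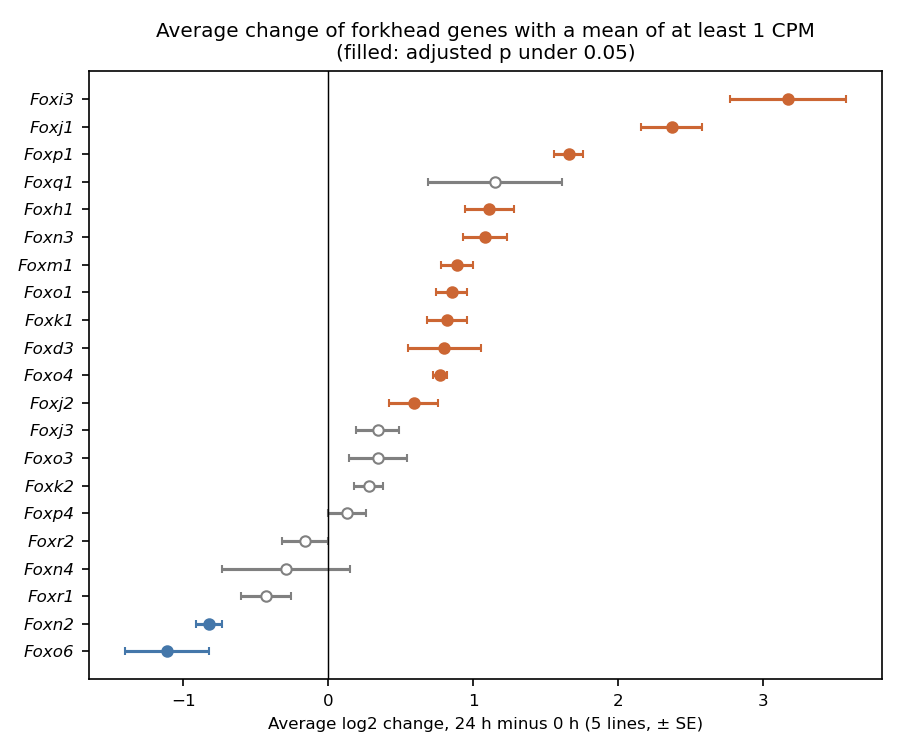
Average log2 change from 0 h to 24 h over the 5 lines, with the standard error (SE), for the 21 tested members with a mean of at least 1 CPM. Filled points passed the adjusted p threshold, with Foxi3 (3.17), Foxj1 (2.37) and Foxp1 (1.66) highest and Foxo6 (-1.11) lowest.

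Foxh1 (mm10 chromosome 15, 76668225 to 76669948), the Nodal effector, read 36.3 and 34.8 CPM in iFoxA1 at 0 h, 26.9 in iFoxC1, 37.4 in iFoxG1, 34.3 in iFoxP3 and 38.4 in iFoxL2. At 24 h it read 43.4, 39.4 and 65.4 CPM in iFoxA1, 75.5 and 101 in iFoxC1, 68.4 and 96.4 in iFoxG1, 58.0 and 78.5 in iFoxP3, and 70.5 and 107 in iFoxL2. The iFoxA1 libraries of the first set were the lowest at 24 h, and the second-set library of every line was the highest of its line. The average log2 change was 1.11 ± 0.17 (SE), a 2.15-fold rise (edgeR adjusted p = 0.00088). Between the library sets at 24 h, Foxh1 was 0.53 ± 0.07 log2 higher in the second (edgeR adjusted p = 0.00177), and within the first set alone the average change was 0.84 ± 0.04. In the list of 19 Nodal pathway genes around Foxh1, 5 rose and 4 fell, with a median log2 change of -0.07. Of all tested genes 21.7% rose and 16.1% fell, with a median of 0.04. The Nodal antagonists Lefty1 and Lefty2 fell by 1.87 and 2.39 on the log2 scale, while the receptor gene Acvr2b (0.57) and Smad3 (0.90), a partner of Foxh1, rose.

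The FoxO group, the nuclear targets of insulin signalling, did not move as 1 block. Foxo4 (chromosome X, 101254528 to 101260873) read 34.9 to 55.8 CPM at 0 h (median 52.5, n = 6) and 62.5 to 117 CPM at 24 h (median 73.4, n = 11). Its average log2 change of 0.77 ± 0.05 had the smallest SE of the 15 called members (edgeR adjusted p = 1.4e-05). Foxo1 (chromosome 3, 52268336 to 52353221) read 16.9 to 24.0 CPM at 0 h (median 19.6) and 24.2 to 51.4 CPM at 24 h (median 35.1), a log2 change of 0.85 ± 0.11 (adjusted p = 0.000375).

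Foxo6, known mainly from the brain, fell by 1.11 ± 0.29 on the log2 scale (edgeR adjusted p = 0.0144), from a median of 1.64 CPM at 0 h to 0.842 CPM at 24 h. Its ranges, 1.19 to 4.22 and 0.198 to 1.37 CPM, overlapped, and without the 0 h library of iFoxC1, its highest, the call was lost. Foxo3 did not pass the test on average (0.34 ± 0.20). It read 141 CPM in both iFoxA1 replicate 3 and iFoxL2 replicate 2, and 34.2 to 78.6 CPM in the 15 other libraries. Foxj3 (71.3 and 63.4 CPM, at most 45.2 elsewhere) and Foxk1 (62.0 and 67.6 CPM, at most 52.3 elsewhere) were highest in the same libraries. Those 2 libraries also had the highest sums of ES markers at 24 h, 5478 and 4835 TPM against 3256 to 4694 TPM in the 9 others, and less of the transgene-encoded gene than the other 24 h libraries of their line. The part of these in the Foxo3 level was not tested. In the list of 27 insulin and FoxO pathway genes, 16 rose and 4 fell (median 0.45), against 21.7% and 16.1% of all tested genes. Trib1 (1.73 ± 0.09), Igf1r (1.88 ± 0.12), Irs2 (2.12 ± 0.14) and the cell death gene Bcl2l11 (2.22 ± 0.17) had the smallest adjusted p. Textbook FoxO targets in the list went both ways, and more of them rose than fell. Irs2, Bcl2l11, Gadd45a (1.63 ± 0.14), Sesn3 (1.38 ± 0.26), Fbxo32 (1.83 ± 0.37), Cited2, Pik3ip1, Insr and Cat rose. Sod2, Sesn1 and Bcl6 fell by 0.99 ± 0.12, 0.69 ± 0.09 and 0.90 ± 0.30 on the log2 scale, and Cdkn1b, Ccng2, Txnip and Pdk4 did not pass.

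FoxP members repress as dimers, and Foxp1 was the member with the smallest adjusted p of the family. Foxp1 (chromosome 6, 98925338 to 99522721) read 20.2 and 21.8 CPM in iFoxA1 at 0 h, 5.03 in iFoxC1, 13.1 in iFoxG1, 16.0 in iFoxP3 and 21.9 in iFoxL2. At 24 h the values were 52.2, 48.4 and 38.7 CPM in iFoxA1, 42.3 and 48.2 in iFoxC1, 22.9 and 29.1 in iFoxG1, 43.8 and 46.9 in iFoxP3, and 65.1 and 59.7 in iFoxL2. All 24 h libraries lay above all 0 h libraries, with iFoxG1 lowest at 24 h and iFoxC1 lowest at 0 h. On average Foxp1 changed by 1.66 ± 0.10 on the log2 scale, a 3.17-fold rise (edgeR adjusted p = 5.1e-06).

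Foxp2, best known from speech circuits of the brain, was near the limit of detection. It had at most 34 counts in a library, with 0.0514 to 0.759 CPM at 0 h and 0.201 to 1.01 CPM at 24 h, and a log2 change of 1.10 ± 0.36 (edgeR adjusted p = 0.0384) that was lost in 9 of 17 runs that each left out 1 library. The call was also lost with the library set as a term (1.07 ± 0.42, adjusted p = 0.0672), without a count filter (adjusted p = 0.0821), with DESeq2 and with limma on log2 TPM. Foxp4, at 62.1 ± 15.8 CPM (SD, n = 6) and 65.4 ± 18.3 CPM (SD, n = 11), did not pass the test. Where 21.7% of all tested genes rose and 16.1% fell, 7 of 11 listed FoxP corepressors and splicing factors rose and 1 fell (median 0.45). Esrp1, an epithelial splicing regulator, changed most (3.21 ± 0.12), and Mbnl2, a splicing factor, rose by 1.31 ± 0.15. The corepressor genes Ctbp2 (0.87 ± 0.10) and Ctbp1 (0.45 ± 0.07) rose too.

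Foxp1 transcripts start at sites that lie far apart in the gene, and 2 of these start regions are shown because the transcript shares bear on them. Each is the 250 bases before a RefSeq start on GRCm38.p6, written 5′ to 3′ along the gene, with every CG pair in capitals. Foxp1-206 starts at the base after the first window, and Foxp1-230 starts 41 bases after the second.
Foxp1 window at chr6:99266516-99266765, - strand: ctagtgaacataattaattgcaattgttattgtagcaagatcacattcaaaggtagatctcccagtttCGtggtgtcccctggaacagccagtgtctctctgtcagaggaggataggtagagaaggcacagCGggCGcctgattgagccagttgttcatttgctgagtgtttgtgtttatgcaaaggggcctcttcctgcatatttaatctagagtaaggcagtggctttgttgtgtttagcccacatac
Foxp1 window at chr6:99028299-99028548, - strand: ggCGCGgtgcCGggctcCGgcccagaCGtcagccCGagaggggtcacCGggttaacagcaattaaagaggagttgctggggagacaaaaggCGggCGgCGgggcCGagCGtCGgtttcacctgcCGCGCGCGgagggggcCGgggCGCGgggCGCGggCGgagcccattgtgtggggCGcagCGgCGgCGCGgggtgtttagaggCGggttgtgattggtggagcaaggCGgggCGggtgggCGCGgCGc
The first window held 3 CG pairs at 45.2% GC and the second 34 at 74% GC. The 28 windows found for 24 members had a median of 15.5 CG pairs and 61.8% GC, against 6 and 52.4% over all 32851 windows. The forkhead core TGTTTAC or its reverse complement GTAAACA was in 0 of the 28 member windows and in 3.17% of all windows. The variant TGTTTGC or GCAAACA was in 2, one each of Foxj3 and Foxp1, and in 4.3% of all. The Foxp1 match lies in a further window of the gene that is not shown (chr6:99520994-99521243), and in neither of those shown. A match of this kind is a description of letters only. Foxp1-230 held 36.8 ± 4.63% of Foxp1 counts at 0 h (SD, n = 6) and 40.1 ± 4.72% at 24 h (SD, n = 11), a difference within the spread (exact permutation test, two-sided, p = 0.178, Benjamini-Hochberg adjusted 0.477 over 23 transcripts). Foxp1-206 ran from 0 to 58.4% of the counts and Foxp1-204 from 0 to 54.7% between 0 h libraries, so the split between these 2 long transcripts was not stable even among libraries of the same time. The 2 replaced each other, with 0 and 54.7% in iFoxL2 and 58.4 and 0% in iFoxA1 replicate 2 at 0 h. Reads shared by both transcripts can be assigned to either, and the part of this in the split was not tested.

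Foxj1, the main activator of motile cilia genes, was among the strongest risers. Foxj1 (chromosome 11, 116330704 to 116335399) read 3.97 and 3.05 CPM in iFoxA1 at 0 h and 1.47 to 2.72 CPM in the other lines. At 24 h it read 37.9, 40.8 and 26.2 CPM in iFoxA1, 17.5 and 20.3 in iFoxC1, 6.14 and 7.67 in iFoxG1, 7.01 and 9.98 in iFoxP3, and 9.45 and 4.86 in iFoxL2. All 3 iFoxA1 libraries exceeded every other library. Over the 5 lines the log2 change of Foxj1 was 2.37 ± 0.21 (5.17-fold, edgeR adjusted p = 4.2e-05). Of 22 listed cilia genes, 15 were tested, and 4 rose and 3 fell, against 21.7% and 16.1% of all tested genes. Dnah5, Dnah9, Dnali1, Mcidas, Spag6 and Tekt4 stayed under 0.5 TPM in every library. The axonemal assembly gene Ccdc40 (1.91 ± 0.20), Ccno (1.63 ± 0.18) and the ciliary regulator Rfx3 (1.13 ± 0.16) rose, and Hydin, a protein of the central pair of cilia, fell by 1.23 ± 0.17 on the log2 scale.

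Foxj2 rose by 0.59 ± 0.17 on the log2 scale (adjusted p = 0.0228) and was highest in iFoxC1 at both times, with 18.5 CPM at 0 h and 17.5 and 23.7 CPM at 24 h. Elsewhere it stayed at or under 9.28 and 15.3 CPM. It was 0.48 ± 0.10 log2 higher in the second library set at 24 h, and within the first set alone the average change was 0.37 ± 0.08. The call was lost without the 0 h library of iFoxG1 or of iFoxL2. Foxj3 did not pass the gene-level test (37.7 ± 4.80 CPM at 0 h, 47.0 ± 10.4 CPM at 24 h).

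Foxj3 was instead the member with a change in transcript share. Foxj3-201 held 27.9 to 52.1% of Foxj3 counts at 0 h (mean 41.1 ± 8.31%, SD, n = 6) and 44.1 to 63.7% at 24 h (53.9 ± 6.11%, SD, n = 11). The share of Foxj3-202 went from 57.7 ± 8.59% to 45.0 ± 6.21%. Both passed an exact permutation test over all assignments of the libraries (two-sided, p = 0.00186 and 0.00259, both 0.0297 after Benjamini-Hochberg adjustment over 23 transcripts of 13 members). These 2 transcripts together held nearly all Foxj3 counts, so their shares mirror each other. The 2 calls are therefore 1 result, although the adjustment counted them apart. The ranges overlapped, and neither passed with shares taken from TPM, without the second library set, or without 1 of 4 0 h libraries (iFoxA1 replicate 2, iFoxC1, iFoxG1 or iFoxP3).

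**Figure D3:**
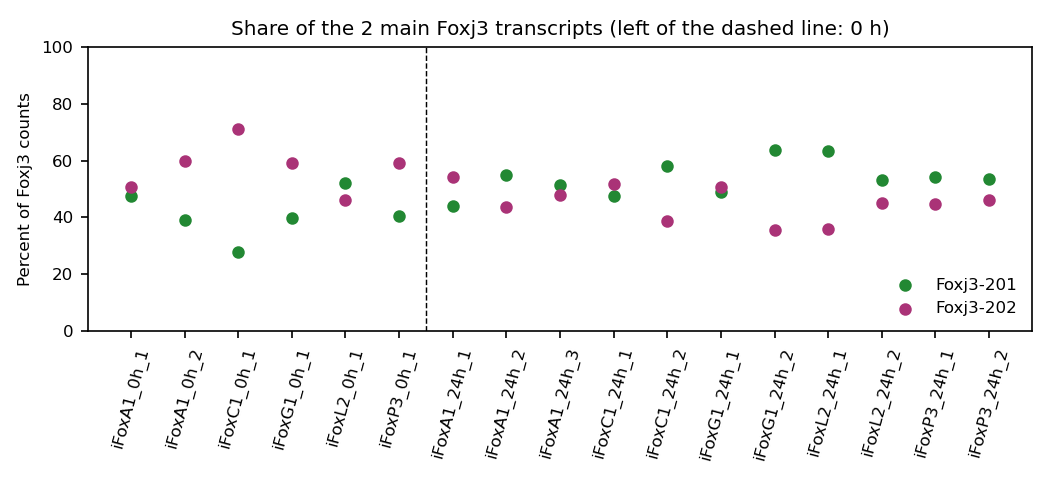
Percent of Foxj3 counts held by Foxj3-201 and Foxj3-202 in each library, with 0 h left of the dashed line. Foxj3-201 runs from 27.9 to 52.1% at 0 h and from 44.1 to 63.7% at 24 h, and Foxj3-202 the other way.

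Foxi3, a factor of the cranial placodes and ectodermal appendages, went from a low level at 0 h to values that spread widely at 24 h. Foxi3 (chromosome 6, 70956531 to 70961066) read 1.29 and 1.50 CPM in iFoxA1 at 0 h, 0.379 in iFoxC1, 1.28 in iFoxG1, 1.89 in iFoxP3 and 2.00 in iFoxL2. At 24 h it read 2.18, 2.20 and 10.0 CPM in iFoxA1, 7.19 and 8.70 in iFoxC1, 35.8 and 32.8 in iFoxG1, 16.4 and 14.7 in iFoxP3, and 6.96 and 8.03 in iFoxL2. Both iFoxG1 libraries were the highest, and the iFoxA1 libraries of the first set were the lowest at 24 h. Foxi3 had an average log2 change of 3.17 ± 0.40 (8.99-fold, edgeR adjusted p = 0.00032).

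Foxd3 (chromosome 4, 99656299 to 99658622), the pluripotency and neural crest factor, went in different directions among libraries. It read 11.3 and 13.6 CPM in iFoxA1 at 0 h, 7.11 in iFoxC1, 18.7 in iFoxG1, and 17.6 in both iFoxL2 and iFoxP3. At 24 h it read 34.2, 40.6 and 34.5 CPM in iFoxA1, 30.3 and 28.6 in iFoxC1, 12.5 and 14.0 in iFoxG1, 25.4 and 25.2 in iFoxP3, and 9.20 and 36.1 in iFoxL2. Both 24 h libraries of iFoxG1 lay below its 0 h library, and the iFoxL2 libraries lay on either side. Foxd3 changed on average by 0.80 ± 0.25 log2 (edgeR adjusted p = 0.0311), and the difference among lines did not pass the test. When the library set entered the fit, the average change was 0.64 and no longer passed (adjusted p = 0.0808), and it was also lost in 7 of 17 runs that each left out 1 library. Of 13 crest and epiblast genes listed with Foxd3, 11 were tested, 5 rose and 1 fell (median 0.85). Over all tested genes 21.7% rose and 16.1% fell. The epiblast genes Pou3f1 (4.91 ± 0.09) and Fgf5 (6.73 ± 0.34) rose, and Nanog fell by 2.40 ± 0.39 on the log2 scale. Of the crest genes, Tfap2a rose (0.69 ± 0.22, adjusted p = 0.0356), Snai2 did not pass (0.85 ± 0.43) and reached 2.47 TPM, and Pax3, Pax7 and Sox10 stayed under 0.5 TPM in every library.

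Foxm1 (chromosome 6, 128362967 to 128376146), the activator of mitotic genes, read 50.9 and 53.0 CPM in iFoxA1 at 0 h, 73.5 in iFoxC1, 38.0 in iFoxG1, 32.7 in iFoxP3 and 43.8 in iFoxL2. At 24 h it read 70.9, 72.4 and 92.1 CPM in iFoxA1, 127 and 171 in iFoxC1, 67.7 and 86.6 in iFoxG1, 60.8 and 74.9 in iFoxP3, and 73.3 and 76.1 in iFoxL2. Within every line the 24 h libraries were higher, and iFoxC1 was highest at both times. The average log2 change was 0.89 ± 0.11 (edgeR adjusted p = 0.000254), and 0.74 ± 0.03 within the first library set, and Foxm1 was 0.30 ± 0.07 log2 higher in the second set at 24 h. Of 22 genes of the G2 and M phases, 6 rose and 3 fell (median 0.04). Of all tested genes 21.7% rose and 16.1% fell, with the same median of 0.04. Cdc20 (0.89 ± 0.10), Plk1 (0.56 ± 0.10) and Aurkb (0.55 ± 0.08), which drive passage through mitosis, rose, and Birc5, the survivin gene, fell by 0.30 ± 0.07 on the log2 scale.

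Of the FoxK factors, which work with Sin3 corepressors, Foxk1 rose and Foxk2 did not pass the test. Foxk1 (chromosome 5, 142401497 to 142462011) read 23.0 to 30.0 CPM at 0 h (median 28.3) and 37.2 to 67.6 CPM at 24 h (median 44.2), without overlap. Its average log2 change was 0.82 ± 0.14 (edgeR adjusted p = 0.00207) and 0.63 ± 0.03 within the first library set. Foxk2 read 55.4 ± 6.48 CPM (SD, n = 6) at 0 h and 67.2 ± 9.40 CPM (SD, n = 11) at 24 h, with a log2 change of 0.28 that did not pass, and the difference between the changes of Foxk1 and Foxk2 was not tested. Of 10 Sin3 and chromatin partners, 3 rose and none fell (median 0.20), against 21.7% and 16.1% of all tested genes. The partners that rose were Asxl1 (0.53 ± 0.06), Hcfc1 (0.68 ± 0.09) and Sin3a (0.20 ± 0.07).

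In the FoxN group, Foxn2 fell and Foxn3, which was first described as a checkpoint suppressor, rose. Foxn2 (chromosome 17, 88440711 to 88490533) read 72.2 to 92.0 CPM at 0 h (median 89.6) and 39.3 to 59.1 CPM at 24 h (median 51.3), so that no 24 h library reached the lowest 0 h library. Its log2 change of -0.82 ± 0.09 (edgeR adjusted p = 0.000186) had the same sign in every line, from -0.60 in iFoxP3 to -1.04 in iFoxC1. Foxn3 (chromosome 12, 99190078 to 99563582) read 27.8 and 29.0 CPM in iFoxA1 at 0 h, and 16.3 to 20.1 CPM in the other lines. At 24 h it read 26.6, 27.3 and 45.7 CPM in iFoxA1, 31.3 and 30.3 in iFoxC1, 49.9 and 48.4 in iFoxG1, 45.7 and 43.3 in iFoxP3, and 44.2 and 67.4 in iFoxL2. Foxn3 in the first 2 iFoxA1 libraries at 24 h lay just below its 0 h libraries, while the 24 h libraries of the 4 other lines lay above theirs. The average log2 change was 1.08 ± 0.15 (edgeR adjusted p = 0.000506). Foxn4, the retinal factor, stayed at 0.251 to 3.25 CPM and did not pass the test.

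Several developmental members were detected only at a few counts. Foxb1, a factor of the embryonic diencephalon, had 0 counts in both 0 h libraries of iFoxA1 and 43 over its 3 libraries at 24 h. With the 0 h group set at a floor of 3 counts, the 24 h rate is 8.21-fold over the floor. Such a fold is not a lower limit, because the 24 h count is taken as exact. In iFoxL2 Foxb1 went from 0 to 20 counts, 2.39-fold over the floor, of which nearly all were in replicate 1 (0.864 against 0.094 CPM). Foxb1 passed the average test (edgeR adjusted p = 0.00788), but its fitted log2 change depends on the prior count because several groups were at 0. It met the count filter in 3 libraries, all at 24 h, so it could be tested only because it was high there, and it also passed without the filter (adjusted p = 0.00576). Foxd4 in iFoxA1 went from 0 to 30 counts, 5.72-fold over the floor, and Foxe1, the thyroid factor, in iFoxG1 from 0 to 24, 2.87-fold over it. These 2 did not pass the average test. Foxa3 and the little-studied Foxr1 and Foxr2 were also detected and did not pass it, at 0.657 ± 0.407, 3.94 ± 1.50 and 2.38 ± 1.37 CPM (SD, n = 11) at 24 h.

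Within the first library set alone the 15 average calls were made again over 12 libraries, where only iFoxA1 has 2 libraries per group and the lone libraries are assumed to vary like these. In this fit 63.2% of all tested genes passed, against 37.8% over all libraries. Foxp1 (1.63 ± 0.05), Foxj1 (2.37 ± 0.09), Foxi3 (2.92 ± 0.10), Foxo4 (0.77 ± 0.03), Foxo1 (0.78 ± 0.04), Foxn3 (0.97 ± 0.04) and Foxd3 (0.54 ± 0.07) kept their direction and passed. The same held for Foxn2 (-0.70 ± 0.04) and Foxo6 (-1.20 ± 0.25), and for Foxh1, Foxk1, Foxm1 and Foxj2 at the values given above. Foxb1 and Foxp2 also passed there (edgeR adjusted p = 0.0092 and 0.0449), Foxp2 with the losses given above. Between the sets at 24 h, 4 of the 29 tested members passed (Foxh1, Foxj2, Foxk1 and Foxm1), all higher in the second set, where 9.09% of all tested genes were higher.

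Taken line by line, the changes from 0 h to 24 h passed the test for 26 pairs of a member and a line. In iFoxA1, 10.8% of all tested genes changed in either direction and 5 members did: Foxb1, Foxj1 (3.31 ± 0.36), Foxo4 (0.44 ± 0.09) and Foxp1 (1.14 ± 0.16) rose, and Foxn2 (-0.71 ± 0.16) fell. Of these, Foxb1 met the count filter only in 24 h libraries, 2 of them of iFoxA1. Its p-value in iFoxA1 is therefore not independent of its high level there. Without the filter its edgeR adjusted p was 0.0278, and its call was lost with DESeq2 and passed in 11 of 17 runs without 1 library. In iFoxC1, where 9.73% of all genes changed, 7 members did. Foxj1 (3.68 ± 0.52), Foxi3 (4.37 ± 1.03), Foxp1 (3.17 ± 0.25), Foxh1 (1.71 ± 0.41), Foxm1 (1.02 ± 0.25) and Foxo4 (0.87 ± 0.13) rose, and Foxn2 (-1.04 ± 0.22) fell.

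In iFoxG1, with 5.64% of all genes changed, Foxi3 (4.73 ± 1.00), Foxn3 (1.45 ± 0.35), Foxo1 (1.31 ± 0.26), Foxo4 (1.09 ± 0.13), Foxm1 (1.02 ± 0.25) and Foxp1 (0.99 ± 0.22) rose. In iFoxL2, with 4.23% changed, only Foxn3 (1.68 ± 0.36) and Foxp1 (1.51 ± 0.23) passed. In iFoxP3, with 6.05% changed, Foxj1 (1.99 ± 0.47), Foxp1 (1.50 ± 0.23), Foxn3 (1.44 ± 0.35), Foxo1 (1.06 ± 0.26), Foxm1 (1.05 ± 0.25) and Foxo4 (1.05 ± 0.13) rose. Foxp1 was thus called in each of the 5 lines and Foxo4 in 4. Under leaving out 1 library at a time, Foxj1 and Foxp1 in iFoxA1, Foxj1, Foxo4 and Foxp1 in iFoxC1, Foxo4 in iFoxG1, Foxo4 and Foxp1 in iFoxP3, and Foxp1 in iFoxL2 passed in every run that could be made. The other 17 pairs lost the threshold in at least 1 run.

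**Figure D4:**
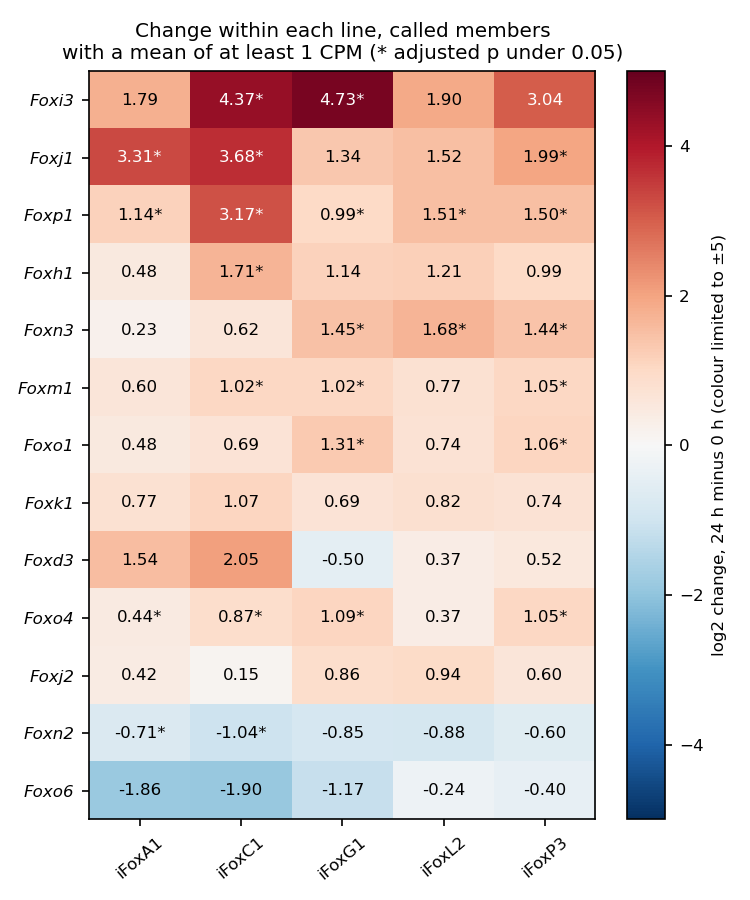
Log2 difference between 24 h and 0 h in each line for the called members with a mean of at least 1 CPM, with an asterisk where the adjusted p was under 0.05. Foxp1 is marked in all 5 lines, and Foxn2 is negative in all 5 lines and marked in iFoxA1 and iFoxC1.

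Whether the 5 changes differ from each other was tested directly. Foxp1 was the one member that passed (edgeR F test over 4 contrasts, adjusted p = 0.0401), in a test that 1.00% of all genes passed. Its log2 change was 3.17 in iFoxC1, against 1.14 in iFoxA1, 0.99 in iFoxG1, 1.50 in iFoxP3 and 1.51 in iFoxL2. The iFoxC1 line started from the lowest 0 h value, 5.03 CPM in a single library, and reached 42.3 and 48.2 CPM, inside the 24 h range of the other lines. The difference among the lines at 0 h was itself called for Foxp1 (adjusted p = 0.0304), and this call too was lost in 11 of 17 runs that each left out 1 library, the same library of iFoxC1 at 0 h among them, and with limma on log2 TPM. The call on the 5 changes was lost in 11 of these 17 runs, among them the run without the 0 h library of iFoxC1, with other size factors (RLE) and with limma on log2 TPM. For Foxi3, Foxj1, Foxd3 and Foxn3, whose 24 h levels spread widely between lines, this test did not pass.

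**Figure D5:**
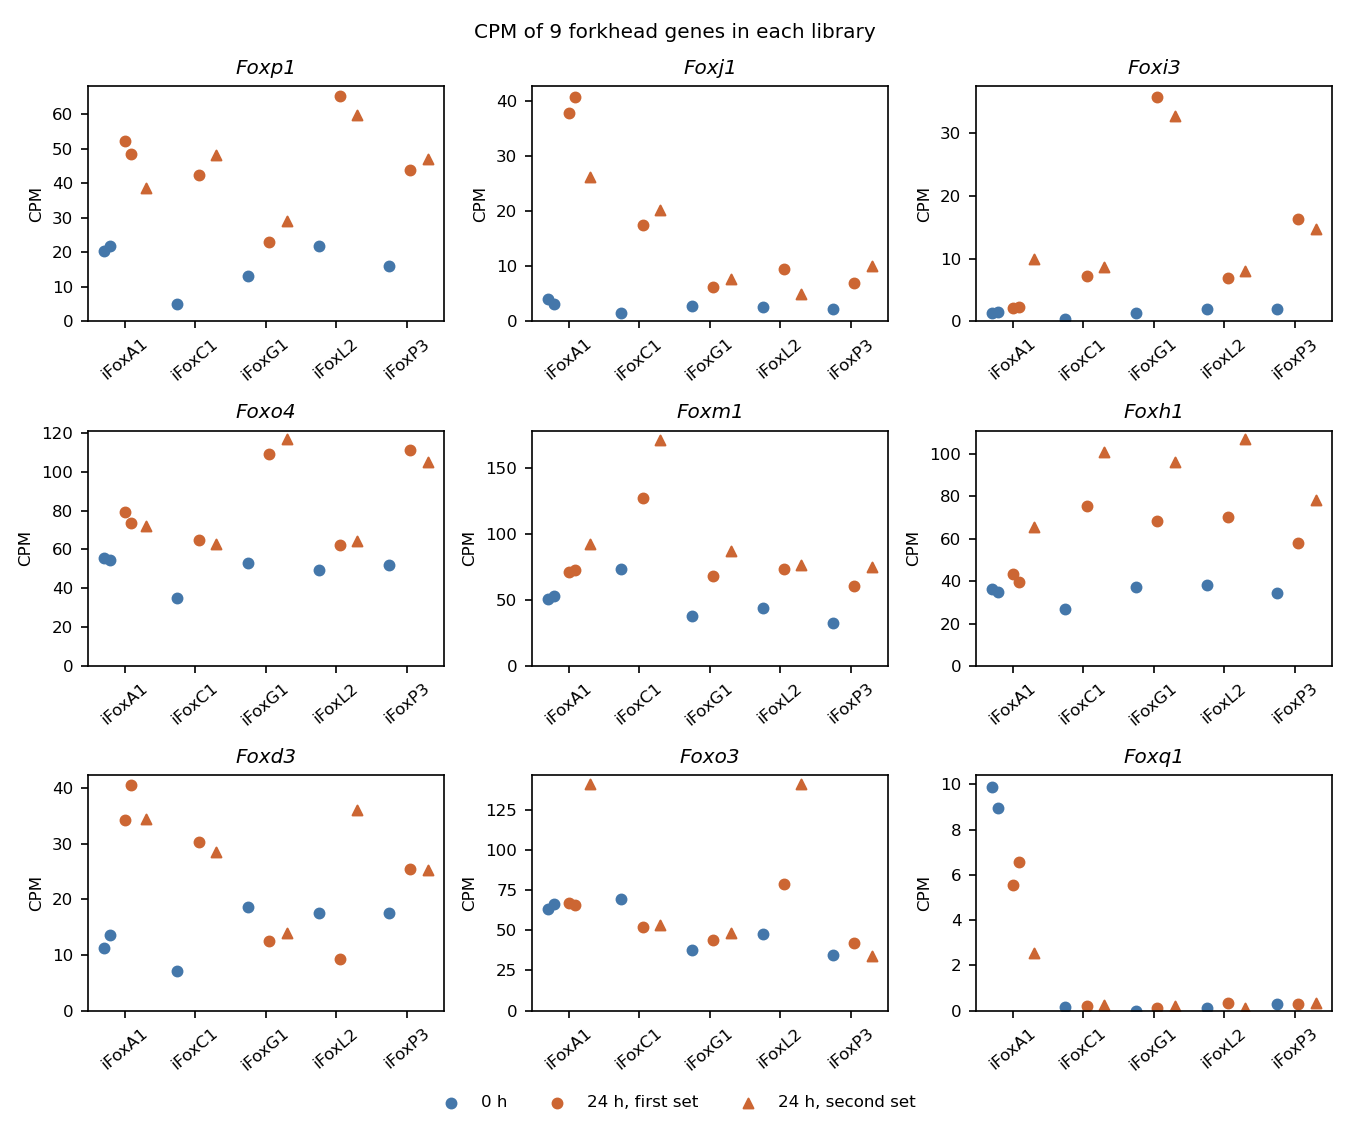
CPM of 9 forkhead genes in each library, by line, with 0 h, the first 24 h set and the second 24 h set marked apart. Foxj1 and Foxq1 are highest in iFoxA1, Foxi3 in iFoxG1 and Foxm1 in iFoxC1, and Foxo3 is at 141 CPM in the second-set libraries of iFoxA1 and iFoxL2.

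At 24 h, iFoxA1 differed from the 4 other lines in 6 of the 29 tested members (20.7%). Of all tested genes 15.1% differed in either direction. Foxq1, a factor known from the hair shaft, read 5.56, 6.55 and 2.57 CPM in iFoxA1 and 0.101 to 0.356 CPM in the other 8 libraries (log2 difference 4.41 ± 0.34, edgeR adjusted p = 5.6e-05). Foxa2, the endoderm and node factor, read 1.79, 1.61 and 4.05 CPM against 0 to 0.251 CPM (4.48 ± 0.67, adjusted p = 0.00222). Foxj1 was also higher (1.89 ± 0.21, adjusted p = 0.000467). Foxd1, of the kidney stroma, and Foxf2, of gut and craniofacial mesenchyme, passed from at most 16 and 13 counts in a library (adjusted p = 0.0317 and 0.0344). Foxr2 was lower in iFoxA1, at 1.34, 1.02 and 1.09 CPM against 0.885 to 4.73 CPM (-1.13 ± 0.23, adjusted p = 0.00909). The calls of Foxa2, Foxj1 and Foxq1 held in all 17 runs without 1 library, that of Foxr2 in 16, that of Foxd1 in 9 of 16 and that of Foxf2 in 7, and Foxf2 was also lost with DESeq2. Foxa2, Foxq1, Foxf2 and Foxd1 met the count filter in 5, 5, 3 and 1 libraries, all of iFoxA1, so they could be tested only because they were high in that line, and their p-values are not independent of that choice. With no filter on low counts the adjusted p was 0.000148 for Foxa2, 8.34e-07 for Foxq1, 0.0354 for Foxf2 and 0.0471 for Foxd1.

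Foxq1 and Foxa2 were already higher in iFoxA1 before Dox removal. At 0 h Foxq1 read 9.90 and 8.95 CPM in iFoxA1 and at most 0.298 CPM in the other lines, and it was 1 of 2 members called among the lines at 0 h (edgeR adjusted p = 0.00901), with Foxp1, where 0.495% of all genes were called. Because Foxq1 met the count filter only in iFoxA1 libraries, this p-value too is not independent of its high level in that line. Without the filter the edgeR adjusted p was 0.000361. The call was lost without either 0 h library of iFoxA1 and with limma on log2 TPM. Foxa2 read 2.39 and 2.32 CPM at 0 h in iFoxA1 against at most 0.216 CPM elsewhere, and Foxf2 0.622 and 0.532 CPM against at most 0.0541 CPM, and neither was called there. The Foxa2 counts in iFoxA1 were 50 and 48 at 0 h and 36, 30 and 137 at 24 h, while Foxa1, with which it shares stretches of 31 bases, went from at most 3.05 CPM to at least 76.8 CPM. The 8 primitive endoderm markers (Gata4, Gata6, Sox17, Pdgfra, Sox7, Dab2, Lama1 and Col4a1) summed to 123 to 128 TPM at 0 h and 124 to 169 TPM at 24 h in iFoxA1. In the other lines they summed to 6.84 to 12.5 TPM and 11.4 to 27.9 TPM, and their part in the Foxa2 and Foxq1 levels was not tested. Fibroblast and smooth muscle markers summed to 12.7 to 23.4 TPM in iFoxA1 over both times, inside the range of the other lines.

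Of 14 endoderm genes listed with the FoxA group, 13 were tested, and 3 rose and none fell on average (median 0.64). Over all tested genes 21.7% rose and 16.1% fell. The 3 listed genes that rose were Otx2 (2.86 ± 0.52), a factor of the anterior epiblast and endoderm, Gata6 (0.64 ± 0.16) and Gata3 (1.07 ± 0.28). Cxcr4 (1.04 ± 0.39) did not pass.

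The other lines differed in fewer members at 24 h, and also in fewer of all genes. The share of tested members was 13.8% in both iFoxC1 and iFoxG1, 6.9% in iFoxL2 and 3.45% in iFoxP3. In iFoxC1, where 3.69% of all genes differed from the other lines, Foxm1 (1.00 ± 0.14) and Foxj2 (1.03 ± 0.23) were higher, and Foxo4 (-0.45 ± 0.08) and Foxr2 (-1.24 ± 0.27) lower. In iFoxG1, where 2.74% differed, Foxi3 (2.07 ± 0.43), Foxr2 (1.23 ± 0.22) and Foxo4 (0.58 ± 0.08) were higher and Foxp1 (-0.92 ± 0.14) lower. Foxr2 read 4.73 and 3.80 CPM in iFoxG1, the highest of the 24 h libraries. In iFoxL2, where 1.64% differed, Foxp1 was higher (0.65 ± 0.13) and Foxo4 lower (-0.46 ± 0.08). In iFoxP3, where 0.561% differed, only Foxo4 passed (0.50 ± 0.08). Several of these calls were lost in runs without 1 library. Of the 17 runs that each left out 1 library, Foxm1, Foxr2 and Foxj2 in iFoxC1 passed in 16, 7 and 6. In iFoxG1, Foxp1, Foxr2 and Foxi3 passed in 15, 12 and 9, and Foxp1 in iFoxL2 passed in 5.

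Foxo4 was the member called most often in these contrasts, in 4 of the 5 lines. Its 24 h values fell in 2 levels, 105 to 117 CPM in the 4 libraries of iFoxG1 and iFoxP3 and 62.5 to 79.4 CPM in the 7 libraries of iFoxA1, iFoxC1 and iFoxL2, with no value between. At 0 h Foxo4 read 34.9 CPM in iFoxC1 and 49.2 to 55.8 CPM in the other 5 libraries, and the test among lines at 0 h did not call it. The call in iFoxC1, iFoxG1, iFoxL2 and iFoxP3 passed in 15, 15, 6 and 7 of 17 runs that each left out 1 library. All contrasts at 24 h share libraries, so a high level in 1 line lowers the difference of the others.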

How the data were processed

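Per the submitters' processing notes, transcripts were quantified with Salmon 1.4.0, and DESeq2 1.30.1 and the mm10 build are also listed. The annotation release and the strand setting are not given in the sources used here. The authors deposited Salmon's estimated counts (expected counts per transcript, not normalised) and TPM for the same transcripts. Of 137271 transcripts, 137225 were matched to GENCODE M21 and summed per symbol into 53588 genes. The 46 others held at most 0.0133% of a library and were left out.

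Summed counts were rounded, filtered with filterByExpr by group (19796 genes left), scaled with TMM and fitted with edgeR 4.0.16 (R 4.3.3, quasi-likelihood test) in 10 groups of line and time, with 7 residual degrees of freedom. Lines with 1 library at 0 h borrow the spread of the other groups. P-values were adjusted over all tested genes (Benjamini-Hochberg, 0.05). An SE is the log2 difference divided by the square root of F. CPM uses TMM-adjusted totals, and no filter other than filterByExpr was set. A floor is 3 counts in place of 0 at 0 h, and a fold over it takes the 24 h count as exact. Intervals are exact at 95% and cover counting error only. Transcript shares were tested, for members with at least 50 counts in every library and transcripts with at least 10% of them in a library, by exact permutation over all assignments of the libraries to 0 h and 24 h. Depth ran from 17.7 to 37.2 M counts.

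Named were all 39 members, and up to 4 genes per list by adjusted p, with further genes of some lists. Members called or among the 6 with the highest mean TPM have values by library, or ranges, means or counts. The members, the 8 gene lists, the markers and the tests were chosen with earlier results of these data known. Sequences are from GENCODE M21 transcripts and RefSeq on GRCm38.p6. The fit was tested on simulated data. Alternatives were RLE factors, no count filter, a mean of at least 1 CPM, the library set as a term, the first set alone, a replicate block, limma 3.58.1 on log2 TPM, DESeq2 1.42.0, each library left out, and, chosen after seeing the data, the omission of 2 libraries. The level of the gene encoded by the iFoxG1 transgene, and 1 listed gene that the naming rule took, are not reported here.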

Additional observations from a re-analysis of the deposited data

Results flagged for a closer look

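Foxp1 drew attention because its change from 0 h to 24 h differed between the lines in a test of that difference itself (edgeR F test over 4 contrasts, adjusted p = 0.0401). Its log2 change was 3.17 ± 0.25 (SE) in iFoxC1 and 0.99 to 1.51 in the 4 other lines. Both 24 h libraries of iFoxC1 were higher than its 0 h library, as in every other line. The iFoxC1 line had a single 0 h library, at 5.03 CPM, the lowest of all 17. Within the first library set the test of the difference gave an adjusted p of 0.000178, with only iFoxA1 replicated, but 50.9% of all tested genes passed in that fit, against 1.00% over all libraries. No group had the 4 libraries needed to look for a single outlying library.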

How the results depend on the processing

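No sign was reversed under any alternative. The 13 members that rose on average became 10 to 17, and 11 to 14 with 1 library left out. The 2 that fell became 2 to 3, and 2 to 4 with 1 library left out, highest without iFoxL2 replicate 1 at 24 h. The 26 pairs called within lines became 78 in the first set alone, 59 without iFoxA1 replicate 3 and iFoxL2 replicate 2 at 24 h, and 9 with limma on log2(TPM + 0.1) and on log2(TPM + 1). They ran from 10 to 39 with 1 library left out, lowest without iFoxA1 replicate 2 at 0 h and highest without either iFoxL2 library at 24 h. The 1 member whose changes differed among lines became 15 in the first set alone, 10 without the 2 libraries, 3 with the set as a term, 4 with DESeq2, and 0 with RLE and both limma fits, and ran from 0 to 3 with 1 library left out. The 17 pairs at 24 h became 68, 49 and 27 in the first set alone, without the 2 libraries and with the set as a term, 11 without a count filter, and 6 and 8 with limma, and ran from 6 to 29. The 2 members at 0 h became 21, 9 and 4 in the same order, 6 with DESeq2, and 0 and 1 with limma, and ran from 0 to 3. The 2 Foxj3 transcripts became 0 with TPM shares and 0 in the first set alone, and ran from 0 to 3. The first set alone has 12 libraries and takes its spread from iFoxA1 only, and the cause of the higher counts was not tested. They rose over all genes too: in the first set alone 41.2 to 47.2% of all tested genes were called within a line, 50.9% among the changes, 17 to 49.9% at 24 h and 54.5% at 0 h. Without the 2 libraries these shares were 20 to 32.4%, 21%, 9.02 to 32.8% and 19.4%, with the set as a term 9.59 to 18.8%, 4.84%, 1.79 to 23.6% and 3.55%, and with DESeq2 9.38 to 15.3%, 8.2%, 2.34 to 18.2% and 6.24%. Over all libraries they were 4.23 to 10.8%, 1.00%, 0.561 to 15.1% and 0.495%.

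Whether the replicate numbers of the labels pair the libraries could not be settled. Only iFoxA1 has more than 1 library at 0 h, so pairs across the times could be checked in that line alone. Deviations of replicate 2 from replicate 1 in iFoxA1 correlated with the other groups at -0.0409 to 0.039, and those of the 4 other lines at 24 h at 0.551 to 0.757, where the number coincides with the library set. With a replicate block, 3 members differed among the changes, 26 pairs at 24 h, 37 pairs within lines and 3 members at 0 h, where 3.12%, 1.67 to 23.5%, 8.15 to 16.3% and 1.59% of all tested genes were called.

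Counts limit Foxb1, Foxd1, Foxd4, Foxe1, Foxf2 and Foxp2, which rest on at most 34 counts in a library. Where a line has 1 library at 0 h, its change rests on that library.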
